A study of Mus musculus with 6 samples.

Results

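The 33 genes described here are markers of the pancreatic acinar cell, its digestive enzymes, its granule proteins and its transcription factors, as they were read in RNA of isolated mouse islets. They were taken by gene name from a fixed list, all 33 were found among the 22923 names of the count table, and all 33 passed the filter on low counts. Islets of male FFA2 global KO mice and of WT mice on a C57BL/6J background, fed normal chow and 10 to 12 weeks old, were compared in 3 libraries per genotype, and the islets of 2 mice were pooled for each library. *Ffar2* codes for FFA2, a receptor for short-chain fatty acids, and the KO lacks it in all tissues, so a value cannot be assigned to a loss in islet cells alone. The libraries are named KO 1, KO 2 and KO 3 and WT 1, WT 2 and WT 3 after their labels, and nothing in the labels pairs a KO with a WT library. The labels give each library as a sample of its own, and p-values rest on the spread between these pools. The labels' age is used here, while a supplement of the study gives a somewhat older age for the sequenced islets.

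Acinar cells make up most of the exocrine pancreas and surround the islets. They synthesize digestive enzymes, largely as inactive zymogens, store them in apical granules and release them into the ducts towards the gut. The complex PTF1, formed by PTF1A and RBPJL, binds enzyme gene promoters, while NR5A2 and BHLHA15 (also called MIST1) act with it in maintaining the acinar state and the secretory apparatus. Islet endocrine cells do not make these enzymes, and islets isolated with collagenase can carry attached acinar cells. Genes are in proportion when they differ between libraries by a common factor, so that the ratio of one to another is constant. The comparison asks how closely the 33 genes kept such proportions over the 6 libraries, and which did not.

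Between 17067263 and 22792367 counts per library were used in the libraries labelled FFA2 global KO, and between 19352339 and 21283444 in WT. *Ffar2* itself had 71.8, 43.9 and 46.1 TMM-scaled CPM (counts scaled to a common library size) in KO 1, KO 2 and KO 3, against 34.1, 27.0 and 26.5 CPM in WT 1, WT 2 and WT 3. The reads of the targeted gene were thus not lower in the libraries labelled FFA2 global KO (log2 fold change 0.89, adjusted p = 0.852 in edgeR). The sources used here do not say which part of the gene the knockout removes, and without this the gene's count does not check the labels. Of 14 beta cell markers listed, 11 were tested, with summed levels of 4870 to 6338 CPM in the libraries labelled FFA2 global KO and 6191 to 6519 CPM in WT. *G6pc2* was the largest part of this sum in every library. It ranged from 1183 to 2153 CPM in the libraries labelled FFA2 global KO and from 2037 to 2701 CPM in WT. Of the 11 markers tested, 4 had a log2 fold change above 0, with a median of −0.09. *Ins1*, *Ins2*, *Gcg* and *Iapp* could not be used, since the authors' caller skipped them and they are listed at 0 in all 6 libraries. For the same reason several acinar genes, among them *Cela1*, *Cela2a*, *Ctrb1* and *Pnlip*, are listed at 0 in the libraries labelled FFA2 global KO and are not analysed here.

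Promoter sequences are shown for 6 members, chosen to set genes that kept proportion (*Prss2*, *Serpini2*, *Cel*) beside genes that did not (*Prss1*, *Prss3*, *Bhlha15*). Each lies mostly upstream of the start of the gene and runs a little past it, 5′ to 3′ on the gene's strand, from RefSeq on GRCm38.p6, the assembly of the mm10 coordinates in the files. Capitals mark CACCTG (an E-box of the kind PTF1 binds), TTTCCC (the TC-box of PTF1), TATAAA and CAAGGTCA (a site for NR5A2), each searched on both strands.
*Prss2* (chr6:41521526-41521825, + strand): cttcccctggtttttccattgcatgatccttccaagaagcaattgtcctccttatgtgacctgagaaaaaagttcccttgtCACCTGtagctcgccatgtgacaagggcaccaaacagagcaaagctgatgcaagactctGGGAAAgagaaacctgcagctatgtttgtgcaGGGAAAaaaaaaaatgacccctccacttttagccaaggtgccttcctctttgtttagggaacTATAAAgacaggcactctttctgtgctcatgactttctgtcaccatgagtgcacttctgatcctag
*Serpini2* (chr3:75270029-75270328, - strand): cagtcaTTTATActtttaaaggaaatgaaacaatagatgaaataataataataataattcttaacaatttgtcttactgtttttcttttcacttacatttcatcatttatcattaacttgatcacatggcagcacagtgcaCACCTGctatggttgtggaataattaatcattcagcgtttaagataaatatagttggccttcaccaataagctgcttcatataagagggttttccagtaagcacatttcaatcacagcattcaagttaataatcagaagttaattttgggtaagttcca
*Cel* (chr2:28563354-28563653, - strand): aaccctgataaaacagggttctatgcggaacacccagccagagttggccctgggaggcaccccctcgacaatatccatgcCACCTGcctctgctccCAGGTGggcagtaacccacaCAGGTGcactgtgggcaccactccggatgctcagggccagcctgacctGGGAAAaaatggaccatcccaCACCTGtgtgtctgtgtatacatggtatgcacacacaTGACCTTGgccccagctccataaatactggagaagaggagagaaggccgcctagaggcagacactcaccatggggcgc
*Prss1* (chr6:41458680-41458979, + strand): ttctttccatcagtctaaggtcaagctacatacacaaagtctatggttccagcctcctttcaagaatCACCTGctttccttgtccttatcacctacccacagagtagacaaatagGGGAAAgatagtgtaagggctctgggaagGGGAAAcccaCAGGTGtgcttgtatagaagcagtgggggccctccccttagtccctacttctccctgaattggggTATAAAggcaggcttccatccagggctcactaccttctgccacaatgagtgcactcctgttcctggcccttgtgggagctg
*Prss3* (chr6:41377564-41377863, - strand): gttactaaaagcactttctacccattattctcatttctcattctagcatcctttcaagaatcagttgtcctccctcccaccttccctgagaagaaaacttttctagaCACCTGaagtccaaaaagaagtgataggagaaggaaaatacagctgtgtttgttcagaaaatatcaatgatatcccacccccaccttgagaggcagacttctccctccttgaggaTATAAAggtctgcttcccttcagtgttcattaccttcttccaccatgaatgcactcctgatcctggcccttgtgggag
*Bhlha15* (chr5:144190036-144190335, + strand): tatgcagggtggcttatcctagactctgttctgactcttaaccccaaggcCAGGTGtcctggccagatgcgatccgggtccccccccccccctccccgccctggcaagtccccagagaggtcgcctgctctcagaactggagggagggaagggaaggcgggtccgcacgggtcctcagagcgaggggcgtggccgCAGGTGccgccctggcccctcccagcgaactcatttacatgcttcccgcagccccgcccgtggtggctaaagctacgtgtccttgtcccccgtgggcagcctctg

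A promoter in the RefSeq table could be matched to 25 of the 33 members. CACCTG stood in the promoters of 17 of these 25 members and in 20.2% of all 32851 promoters of the table. TTTCCC stood in those of 6 members, against 25.2% of all promoters, and both stood together in 5 members, against 4.86%. TATAAA stood in 10 members, against 13.6% of all promoters. CAAGGTCA was found in *Cel* and *Klk1*, against 1.56%, and CATATG, an E-box of the kind MIST1 binds, in 0 members, against 3.91%. *Prss1* and *Prss2* each held the E-box, the TC-box and the TATA box, and *Prss3* held the E-box and the TATA box. Genes that kept proportion and genes that did not thus both carried CACCTG within this window, and these letters are given as a description of the sequence only.

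The digestive enzymes differed severalfold between libraries of the same genotype. *Cpa1*, which codes for carboxypeptidase A1, had 1942, 13756 and 44294 CPM in KO 1, KO 2 and KO 3, against 5569, 6633 and 1637 CPM in WT 1, WT 2 and WT 3. KO 3 was thus the highest library and WT 3 the lowest, KO 1 stood close to WT 3, and the groups overlapped. The mean of *Cpa1* was 19997 ± 21855 CPM in the libraries labelled FFA2 global KO and 4613 ± 2632 CPM in WT (SD, n = 3 each). The 33 members together took 1.73%, 11.4% and 28.9% of the counts used of KO 1, KO 2 and KO 3, against 5.09%, 6.06% and 1.63% of those of WT 1, WT 2 and WT 3. The counts used leave out the genes skipped by the authors' caller, so these are not shares of all RNA. All 33 members were highest in KO 3, all 33 were higher in KO 2 and in KO 3 than in any WT library, 21 were lowest in WT 3 and the other 12 were lowest in KO 1. In 0 of the 33 members did the groups not overlap, whereas this held for 11.2% of the 14082 genes tested. In bulk RNA, a smaller number of acinar cells and less RNA of these genes per cell cannot be told apart.

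**Figure D1:**
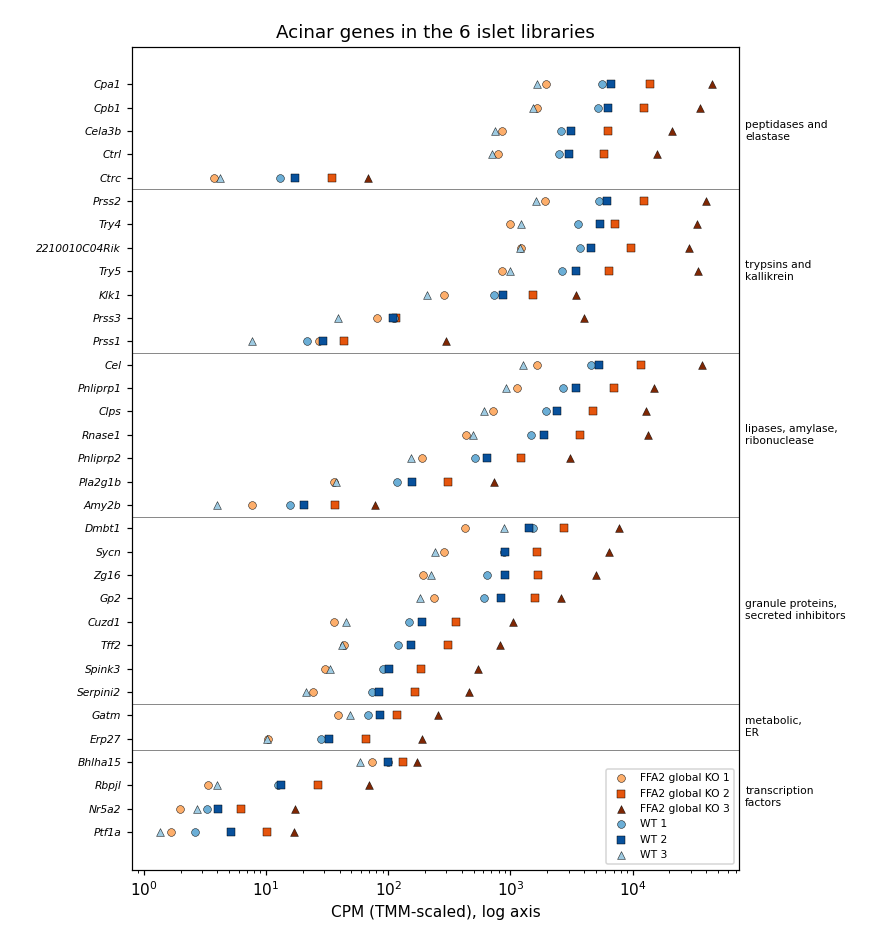
Levels of the 33 acinar genes in each library, in TMM-scaled CPM on a log axis, grouped by role, with circles, squares and triangles for the libraries labelled FFA2 global KO (orange to brown) and for WT (blue). In every row the KO 3 point is the rightmost and KO 2 lies right of the 3 WT points, while KO 1 lies beside WT 3 for many genes, as for *Cpa1* at 1942 and 1637 CPM, but not for *Prss1* (26.9 and 7.70 CPM), *Prss3* or *Dmbt1*.

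The common difference between libraries was summarised as a library factor, the median over the members of log2 CPM after each member was centred on its own mean over the 6 libraries. This factor was −1.69, 1.08 and 2.55 in KO 1, KO 2 and KO 3, against −0.19, 0.09 and −1.84 in WT 1, WT 2 and WT 3. Set against WT 3, the members were at 1.11, 7.55 and 20.9 times its level in KO 1, KO 2 and KO 3, and at 3.14 and 3.81 times in WT 1 and WT 2. The interquartile range of the members around the factor was 0.39, 0.23 and 0.52 (log2) in KO 1, KO 2 and KO 3, against 0.11, 0.18 and 0.16 in WT 1, WT 2 and WT 3, and KO 3 was the library in which the members agreed least. For each member, the residual is its centred log2 CPM minus the factor of the other members, and the root mean square (RMS) of its 6 residuals measures how far it departs from proportion. The slope of its log2 CPM on the factor is 1 for a gene in proportion, and less than 1 for a gene that varies less than the others.

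The RMS residual was under 0.2 in 19 members, between 0.2 and 0.5 in 9 and at least 0.5 in 5, with a median of 0.164. The slope lay between 0.9 and 1.1 in 22 members, and its median was 0.996. A total of 25 members stayed within 1.5-fold of the factor in all 6 libraries, over a range in which the factor itself spanned 20.9-fold, and 8 members did not. For comparison, the median slope of the 12466 other genes with at least 20 counts in every library was −0.0026. Counting of reads alone would give a smaller RMS than was seen, and 27 of the 33 members exceeded that value by more than 3 times.

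**Figure D2:**
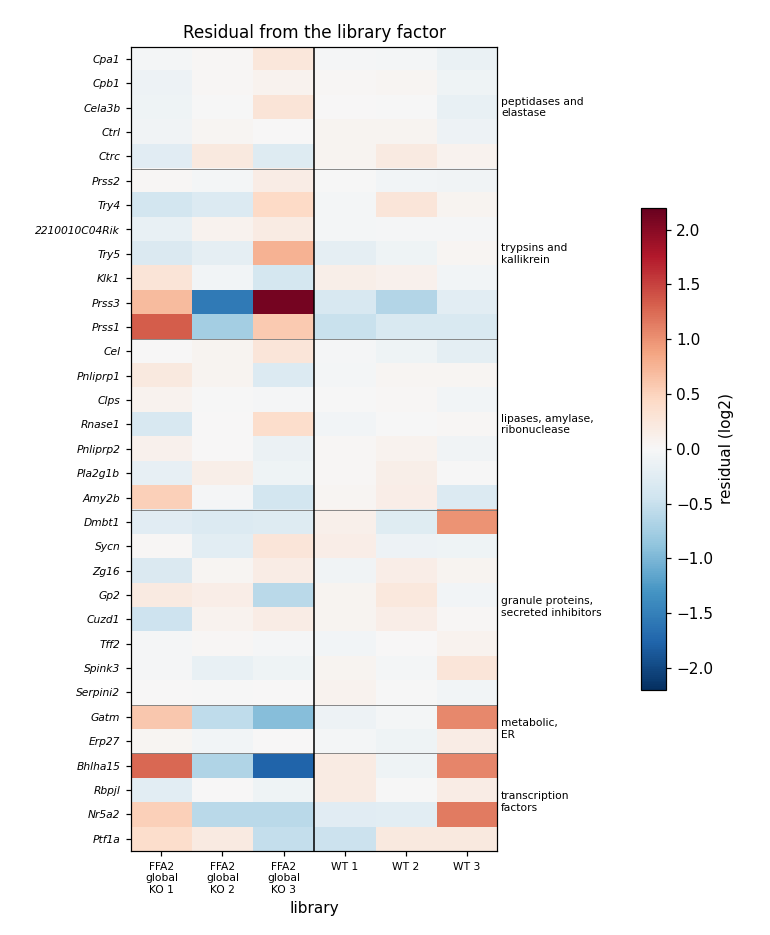
Residuals of the 33 members (rows, by role) in the 6 libraries (columns), in log2 units, with red for above and blue for below the library factor. Most rows are pale, while *Prss3* (2.1 in KO 3), *Prss1* (1.34 in KO 1), *Bhlha15* (−1.77 in KO 3), *Gatm*, *Nr5a2* and *Dmbt1* stand out.

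Among the members closest to proportion, *Serpini2*, which codes for a serpin made by acinar cells, had 24.4, 166 and 460 CPM in KO 1, KO 2 and KO 3, against 73.3, 83.4 and 21.4 CPM in WT 1, WT 2 and WT 3. Its RMS residual of 0.040 equalled the 0.040 that counting gave, so no departure beyond counting error was detectable at its depth. *Clps* codes for colipase, the cofactor that lets pancreatic lipase work in the presence of bile salts, and had 727, 4716 and 12933 CPM in KO 1, KO 2 and KO 3, against 1965, 2422 and 604 CPM in WT 1, WT 2 and WT 3. The RMS residual of *Clps* was 0.042 where counting gave 0.0075, a small departure that its greater depth made visible. *Tff2*, which codes for a secreted trefoil peptide, had 43.5, 307 and 823 CPM in KO 1, KO 2 and KO 3, against 121, 153 and 42.1 CPM in WT 1, WT 2 and WT 3, with an RMS residual of 0.044. Because the lowest RMS a gene can show depends on its counts, the order of these 3 is not an order of their biology. *Ctrl*, a chymotrypsin-like protease, came next with 796, 5847 and 15829 CPM in KO 1, KO 2 and KO 3, against 2483, 2990 and 701 CPM in WT 1, WT 2 and WT 3, and an RMS residual of 0.069.

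The proteases other than the trypsins held together closely, with RMS residuals of 0.069 to 0.197. *Cpb1* codes for carboxypeptidase B1, which cleaves basic residues from the ends that trypsin leaves, and its level was 85.8%, 90.5% and 80.0% of that of *Cpa1* in KO 1, KO 2 and KO 3, against 93.0%, 95.7% and 93.0% in WT 1, WT 2 and WT 3. The ratio was therefore within 1.20-fold over all libraries, and it was lowest in KO 3. *Cela3b*, an elastase, had an RMS residual of 0.139 and a residual of 0.28 in KO 3. *Ctrc*, which codes for chymotrypsin C, a regulator of trypsinogen activation, had the highest RMS of the group at 0.197, where counting gave 0.095. Its levels were low, at 3.73, 34.8 and 68.7 CPM in KO 1, KO 2 and KO 3, against 13.1, 17.4 and 4.19 CPM in WT 1, WT 2 and WT 3.

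Of the lipid, starch and RNA digesting enzymes among the members, *Cel*, the bile salt-dependent lipase, was the highest in CPM, with 1638, 11649 and 37160 CPM in KO 1, KO 2 and KO 3, against 4587, 5273 and 1276 CPM in WT 1, WT 2 and WT 3. The skipped gene *Pnlip* had more reads in WT, with 213298, 235468 and 52965 counts in WT 1, WT 2 and WT 3, against 104215, 108964 and 26509 for *Cel*. The residuals of *Cel* lay between −0.22 (WT 3) and 0.27 (KO 3). The lipase-related gene *Pnliprp1* was at 69.3%, 60.2% and 40.4% of *Cel* in KO 1, KO 2 and KO 3, against 59.0%, 65.8% and 71.7% in WT 1, WT 2 and WT 3, and KO 3 was again the library apart. *Rnase1*, the pancreatic ribonuclease, ran the other way, with a residual of 0.39 in KO 3 and −0.35 in KO 1. *Amy2b*, an amylase gene, had the largest RMS of this group at 0.302, with 7.76, 36.4 and 77.6 CPM in KO 1, KO 2 and KO 3, against 15.8, 20.5 and 4.0 CPM in WT 1, WT 2 and WT 3. Near-identical amylase genes were among those skipped by the authors' caller, so reads could be shared between copies and the value of *Amy2b* is uncertain. *Pnliprp2* (0.082) and *Pla2g1b*, which codes for a secreted phospholipase A2 (0.116), were within the closer part of the list by RMS residual.

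Granule proteins and secreted inhibitors had RMS residuals of 0.040 to 0.463. *Dmbt1*, which codes for a secreted scavenger receptor-like glycoprotein, was the highest of them in CPM, with 423, 2765 and 7745 CPM in KO 1, KO 2 and KO 3, against 1534, 1430 and 890 CPM in WT 1, WT 2 and WT 3. Its residual was 0.98 in WT 3, the largest of its 6, and between −0.30 and 0.11 in the other libraries. *Gp2* codes for the main membrane glycoprotein of zymogen granules and was at 12.3%, 11.5% and 5.91% of *Cpa1* in KO 1, KO 2 and KO 3, against 11%, 12.7% and 11.2% in WT 1, WT 2 and WT 3. In 5 of the libraries its ratio to *Cpa1* was thus nearly constant, and in KO 3 it was lower, with a residual of −0.59. *Spink3*, the trypsin inhibitor of acinar granules, was at 1.59%, 1.49% and 1.37% of *Prss2* in KO 1, KO 2 and KO 3, against 1.72%, 1.66% and 2.06% in WT 1, WT 2 and WT 3. The ratio of *Spink3* to *Prss2* therefore stayed within 1.51-fold, and its ratio to the other trypsinogens was not calculated. *Sycn* (syncollin, a granule membrane-associated protein), *Zg16* (a lectin of zymogen granules) and *Cuzd1* (a CUB and zona pellucida domain protein) had RMS residuals of 0.169, 0.164 and 0.212.

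Trypsins were the group with the widest spread of RMS residuals, from 0.085 in *Prss2* to 1.15 in *Prss3*. *Prss2*, a major trypsinogen, had 1902, 12479 and 39607 CPM in KO 1, KO 2 and KO 3, against 5302, 6158 and 1608 CPM in WT 1, WT 2 and WT 3, and its residuals lay between −0.09 and 0.17. *Prss3*, by contrast, had 81.1, 117 and 4038 CPM in KO 1, KO 2 and KO 3, against 112, 110 and 38.7 CPM in WT 1, WT 2 and WT 3. KO 2 thus stood beside the WT libraries for *Prss3*, where for *Prss2* it was above each of them, and KO 3 was 104 times the level of WT 3, where for *Prss2* the highest library was 24.6 times the lowest. As a share of *Prss2*, *Prss3* was 4.26%, 0.936% and 10.2% in KO 1, KO 2 and KO 3, against 2.1%, 1.79% and 2.40% in WT 1, WT 2 and WT 3. The 3 WT ratios were close to each other, whereas those of the libraries labelled FFA2 global KO spanned 10.9-fold. *Prss1*, another trypsinogen, had 26.9, 43.7 and 299 CPM in KO 1, KO 2 and KO 3, against 21.6, 29.2 and 7.70 CPM in WT 1, WT 2 and WT 3, and its residuals were 1.34, −0.74 and 0.57 in KO 1, KO 2 and KO 3, against −0.49, −0.34 and −0.34 in WT 1, WT 2 and WT 3. *Prss1* and *Prss3* were therefore both above the factor in KO 1 and KO 3 and below it in the other 4 libraries, although the residual was larger in KO 1 for *Prss1* and in KO 3 for *Prss3*.

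The 6 trypsin members lie in 1 cluster on chromosome 6 (mm10), from *2210010C04Rik* at chr6:41030268-41035509 to *Prss2* at chr6:41521776-41525079, with *Prss3* at chr6:41373759-41377613 and *Prss1* at chr6:41458930-41463786. Between *Prss3* and *Prss1* lies *Gm5771* (chr6:41392356-41397256), which is no member of the list and was singled out after its values were seen. It had 898, 291 and 19777 counts in KO 1, KO 2 and KO 3, against 428, 482 and 259 counts in WT 1, WT 2 and WT 3. Its residuals were 1.54, −2.34 and 2.51 in KO 1, KO 2 and KO 3, against −0.93, −0.90 and 0.13 in WT 1, WT 2 and WT 3, so that it was above the factor in KO 1 and KO 3 like its neighbours. *Prss3*, *Gm5771* and *Prss1* together took 2.82%, 0.490% and 3.99% of all counts of the cluster's 8 trypsin genes in KO 1, KO 2 and KO 3, against 0.978%, 0.817% and 1.15% in WT 1, WT 2 and WT 3. The flanking genes *2210010C04Rik* (RMS 0.104) and *Prss2* kept proportion, and *Try4* and *Try5* were intermediate, with residuals of 0.45 and 0.77 in KO 3. *Klk1*, the tissue kallikrein on chromosome 7, which belongs to the same protease family, had residuals of 0.29 in KO 1 and −0.38 in KO 3.

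**Figure D3:**
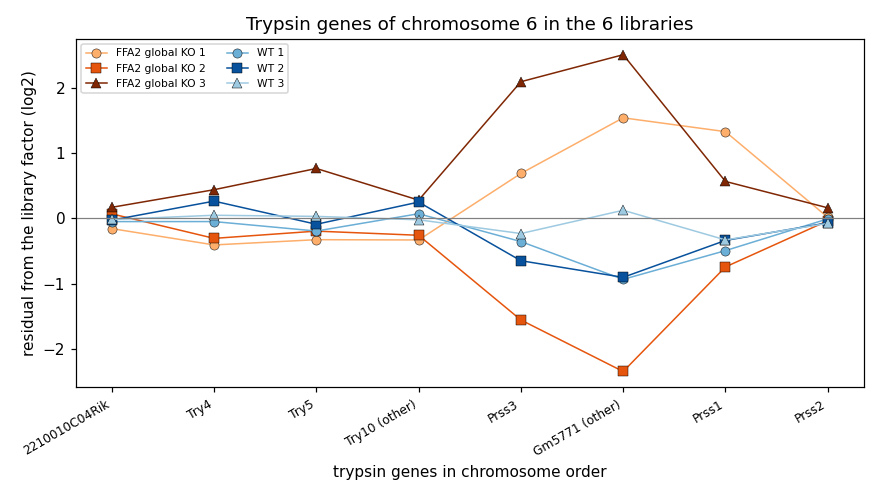
Residuals from the library factor (log2) of the 8 trypsin genes of the chromosome 6 cluster, in the order in which they lie, 1 line per library. The lines of KO 1 and KO 3 part upward and that of KO 2 downward at *Prss3*, *Gm5771* and *Prss1*, with 2.51 in KO 3 and −2.34 in KO 2 at *Gm5771*, and meet near 0 at *2210010C04Rik* and *Prss2*. *Try10* and *Gm5771* are marked as other genes because they are not among the 33.

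These trypsin genes are near copies of each other, and the treatment of reads with several matches is not given in the sources used here. In GENCODE M21 transcripts of the same assembly, *Prss1* was 97.4% identical to *Gm5771* and 96.1% to *Prss3*, and *Try4* was 97.1% identical to *Try5*. Of all stretches of 50 bases in each transcript, 54.9% were shared exactly with another gene of the cluster for *Prss1*, 34.4% for *Prss3*, 64.2% for *Try4*, 51.5% for *Try5*, 7.83% for *Prss2* and 0% for *2210010C04Rik*. The division of reads among *Prss1*, *Prss3* and *Gm5771*, and between *Try4* and *Try5*, is therefore uncertain. *Prss1* also shared 13.6% of its stretches with *Try4* and 11.5% with *Try5*. The division between these sets, and the summed share of *Prss1*, *Prss3* and *Gm5771*, is thus uncertain too. The part of shared reads in the residuals was not tested. *Try5* was at 86.6%, 88.5% and 103% of *Try4* in KO 1, KO 2 and KO 3, against 74.1%, 64.1% and 81.0% in WT 1, WT 2 and WT 3.

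Among the transcription factors, *Rbpjl* kept proportion and *Bhlha15* and *Nr5a2* did not. *Rbpjl*, the acinar-restricted partner of PTF1A, had 3.32, 26.9 and 69.1 CPM in KO 1, KO 2 and KO 3, against 12.5, 13.4 and 3.95 CPM in WT 1, WT 2 and WT 3. Its slope was 0.99 and its RMS residual 0.144, where counting gave 0.10, so a low-count regulator followed the enzymes nearly as closely as its depth allows. *Ptf1a* had 1.68, 10.1 and 17 CPM in KO 1, KO 2 and KO 3, against 2.64, 5.18 and 1.35 CPM in WT 1, WT 2 and WT 3, with an RMS residual of 0.362 where counting gave 0.167. Its lowest count, in WT 3, was 28, and the precision of this gene is limited by depth. *Nr5a2*, a nuclear receptor, had 1.97, 6.27 and 17.3 CPM in KO 1, KO 2 and KO 3, against 3.30, 4.02 and 2.74 CPM in WT 1, WT 2 and WT 3. The level of *Nr5a2* in WT 3 was 1.15 above the factor (log2), and its slope was 0.63.

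*Bhlha15* departed most from the others in slope. It had 74.3, 133 and 172 CPM in KO 1, KO 2 and KO 3, against 99.3, 99.5 and 58.8 CPM in WT 1, WT 2 and WT 3. The order of the libraries was that of the library factor, but the span was 2.92-fold and the slope 0.33. Its residuals were 1.27, −0.67 and −1.77 in KO 1, KO 2 and KO 3, against 0.18, −0.10 and 1.08 in WT 1, WT 2 and WT 3, high where acinar RNA was low and low where it was high. *Gatm*, which codes for the first enzyme of creatine synthesis and is abundant in acinar cells, had 38.9, 119 and 255 CPM in KO 1, KO 2 and KO 3, against 68.0, 85.7 and 48.5 CPM in WT 1, WT 2 and WT 3, with a slope of 0.57 and the same pattern. A straight line of CPM on the linear factor gave a level at a factor of 0, expressed as a percentage of the gene's lowest library, of 111% for *Bhlha15*, 82.0% for *Gatm*, 73.1% for *Nr5a2*, 40.3% for *Ptf1a*, 29.1% for *Dmbt1*, 27.1% for *Gp2*, 25.5% for *Prss1*, 22.1% for *Klk1* and 20.2% for *Pnliprp1*, against −3.27% for *Rbpjl* and −0.0033% for *Clps*. Values below 0, which no gene can hold, reached −38.6% for *Cuzd1*, −27.0% for *Rnase1* and −21.5% for *Zg16*. Positive values of about that size, from *Ptf1a* to *Pnliprp1* as listed, thus show no level that was kept. A value over 100%, as for *Bhlha15*, lies above the lowest measured level, so the line describes that gene poorly and the value is no level it held. For *Erp27*, which codes for an endoplasmic reticulum chaperone of acinar cells, it was 11.1% with an RMS residual of 0.085. The same line gave 87.0% for *Prss3*, which was also poorly described, with 2.1 in KO 3 and −1.56 in KO 2 as residuals.

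**Figure D4:**
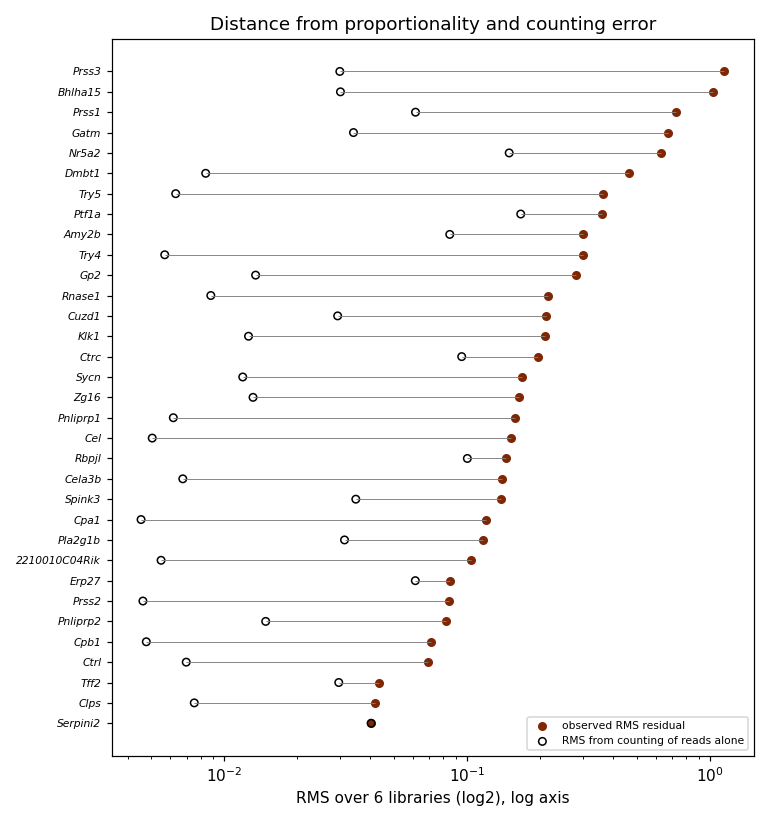
RMS residual of each member over the 6 libraries (filled, log2 units) beside the RMS that Poisson counting of its reads would give (open), on a log axis and in order of the filled points. The points span 0.040 (*Serpini2*, where both coincide) to 1.15 (*Prss3*), and 5 genes lie at 0.5 or above.

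Compared by length in the authors' pooled RPKM, the trypsinogens led the levels, with *Prss2* at 20709 RPKM in the libraries labelled FFA2 global KO and 4879 RPKM in WT. *Try4* followed at 16644 and 3974 RPKM in the libraries labelled FFA2 global KO and in WT, and 3 of the regulators closed the order. *Nr5a2* had 1.81 RPKM in the libraries labelled FFA2 global KO and 0.703 RPKM in WT, *Ptf1a* had 5.44 RPKM in the libraries labelled FFA2 global KO and 1.83 RPKM in WT, and *Rbpjl* had 10.9 RPKM in the libraries labelled FFA2 global KO and 3.39 RPKM in WT. The values are the authors' own means per genotype and carry no error, so neighbours in this order cannot be called different.

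Between genotypes, none of the 33 members passed the test. In edgeR's quasi-likelihood test across 14082 genes, 0 members had an adjusted p under 0.05, as did 0% of all genes, and the adjusted p of every member was 0.852. At an unadjusted p under 0.05 there were 2 members, both higher, against 4.69% of all genes in either direction and 2.58% higher. These were *Prss1* (log2 fold change 2.65 ± 0.96 SE, 95% interval 0.39 to 4.92) and *Prss3* (4.02 ± 1.52 SE, 0.45 to 7.60), both among the genes that departed from proportion and whose reads may be shared. All 33 estimates were above 0, with a median log2 fold change of 1.88, against 0.016 over all genes, and a range of 0.55 (*Bhlha15*) to 4.02 (*Prss3*). The intervals were wide. For *Cpa1* the log2 fold change of 2.12 had a 95% interval of −0.28 to 4.52, and for *Rbpjl* 1.72 had one of −0.49 to 3.93. Since the 33 genes shared 1 factor per library, their common direction amounts to a comparison of 3 factors with 3 and not to 33 observations.

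**Figure D5:**
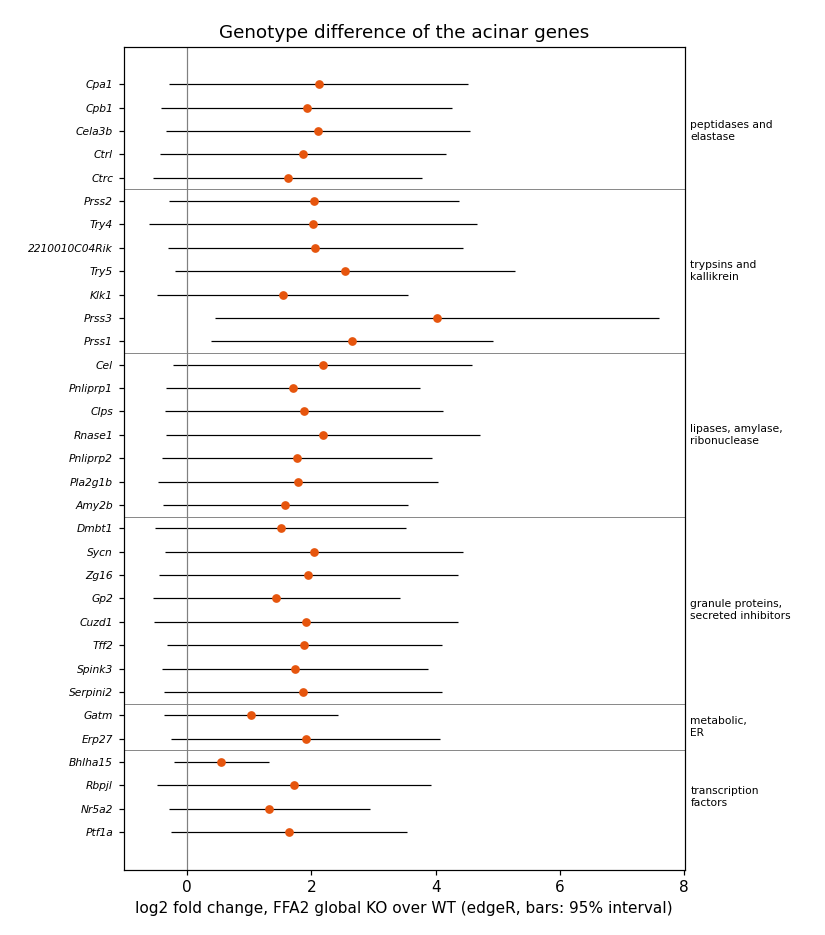
Log2 fold change of each member, libraries labelled FFA2 global KO over WT, from edgeR, with 95% intervals, by role. All points lie right of 0, and the intervals of all members but *Prss1* and *Prss3* cross 0, as for *Cpa1* (−0.28 to 4.52).

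The difference rested on single libraries. Without KO 3, the median log2 fold change of the members was 0.69 and 0 members had an unadjusted p under 0.05, against 1238 of all 14298 genes tested. *Prss3* then had a log2 fold change of 0.18 and *Prss1* one of 0.85. Without KO 1, the median was 2.41 and all 33 members had an unadjusted p under 0.05, against 991 of all 14245 genes tested. No member then had an adjusted p under 0.05, and the 33 share 1 factor per library. *Sycn* lies 2.28 Mb from *Ffar2* on chromosome 7, in a stretch that can differ between genotypes around a targeted gene, and its log2 fold change of 2.04 and RMS residual of 0.169 were like those of members elsewhere.

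Markers of the other cells that an islet preparation could hold did not follow the acinar factor in the same way. Of 12 ductal markers, 11 were tested, with summed levels of 2339 to 2968 CPM in the libraries labelled FFA2 global KO and 2148 to 3030 CPM in WT. *Krt8* was the largest part of this sum in every library, followed by *Krt18* and *Krt7*, and the sum mainly reads these genes. *Sox9*, by contrast, ranged from 2.63 to 7.61 CPM in the libraries labelled FFA2 global KO and from 4.04 to 4.67 CPM in WT. The sum is therefore no measure of the amount of ductal cells, which was not tested. *Muc1* went partly with the factor (slope 0.55, with 9.64, 33.7 and 69.6 CPM in KO 1, KO 2 and KO 3), and *Sox9* had a slope of 0.29. The other ductal markers with at least 20 counts in every library had slopes of −0.17 (*Onecut2*) to 0.07 (*Spp1*). Of the 11 tested, 5 had a log2 fold change above 0, with a median of −0.05. All 9 stellate and stromal markers were tested, and their summed level was 29.3, 52.3 and 225 CPM in KO 1, KO 2 and KO 3, against 45.2, 285 and 97.9 CPM in WT 1, WT 2 and WT 3. Stromal RNA was thus highest in WT 2 and KO 3 and lowest in KO 1, an order that is not that of the acinar genes. Endothelial markers (7 of 7 tested) summed to 511 to 668 CPM in the libraries labelled FFA2 global KO and 511 to 569 CPM in WT, and macrophage and leukocyte markers (10 of 12) to 127 to 169 CPM in the libraries labelled FFA2 global KO and 156 to 225 CPM in WT. Of these 10 macrophage and leukocyte markers, 0 had a log2 fold change above 0, with a median of −0.51. An unadjusted p under 0.05 was reached by 0 of them, against 4.69% of all genes. The adipocyte markers *Adipoq* and *Plin1* had 0 counts in all libraries. The part of stromal cells in the residuals of KO 3 was not tested. In a list of 20 genes of the secretory pathway and endoplasmic reticulum load, which islet cells also express, 19 were tested, 3 were above 0, the median log2 fold change was −0.16 and 3 had an unadjusted p under 0.05, all lower in the libraries labelled FFA2 global KO, against 2.12% of all genes lower by that rule.

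Beyond the 33, few genes followed the factor. Of the 12466 other genes with at least 20 counts in every library, 27 had a slope of at least 0.8, and 24 of these had an RMS residual under 0.5. Among the genes most like the members were *Pdia2*, a pancreatic protein disulfide isomerase (RMS residual 0.094), *Gm13011*, which RefSeq lists as a synonym of *Cela3a* (0.140), *Ggt1* (0.141), *Tmed11* (0.159), *Gal* (0.180), *Aqp12*, a water channel of acinar cells (0.181), *Slc39a5*, a zinc transporter (0.188), *Reg1* (0.188) and *Klk1b5* (0.201). *Pdia2* had 68.7, 496 and 1283 CPM in KO 1, KO 2 and KO 3, against 211, 257 and 55.9 CPM in WT 1, WT 2 and WT 3, so that its libraries stood in the order of the library factor. Likeness here is the smallness of the RMS residual over 6 libraries, and these libraries share the same factor for all genes. In a list of 16 other acinar genes, 14 were found and tested, 0 had an unadjusted p under 0.05, 14 were above 0 and the median log2 fold change was 1.45. Some of them departed from proportion. *Rab3d*, a GTPase of secretory granules, had 210, 254 and 271 CPM in KO 1, KO 2 and KO 3, against 273, 240 and 208 CPM in WT 1, WT 2 and WT 3, with a slope of 0.09. *Mknk1*, a kinase, had a slope of 0.30, so that these 2 genes, like *Bhlha15*, varied far less than the enzymes.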

How the data were processed

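RNA of isolated islets was sequenced in 6 libraries, 3 labelled FFA2 global KO and 3 WT. Per the labels and the study's methods, the authors aligned reads with TopHat2 (2.0.8b) to mm10 and ran Cuffdiff (2.1.1). How reads were counted, and whether strand was used, is not given in the sources used here. The deposited values are unnormalized estimated counts for each gene in each library; fractional values occurred in 478 genes (by more than 0.1 in 9), and all were rounded. The authors' comparison table gives RPKM pooled per genotype, which are printed as their means, and fold changes, p-values and calls, which were not used. Gene coordinates are from that table.

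Left out were 158 names with several values and 15 genes skipped by the authors' caller, and 22750 genes entered the filter. Counts were filtered (filterByExpr defaults), which kept 14082 genes, scaled by TMM and tested with edgeR 4.0.16 in R 4.3.3 (quasi-likelihood, genotype only, 2-sided, Benjamini-Hochberg, threshold 0.05). The biological coefficient of variation was 21.5%. Proportionality used CPM without a prior count and genes with at least 20 counts in every library, and was not tested. Genes named include the 33 members and a list of other acinar genes. They also include the 10 non-members of smallest RMS residual with a slope of at least 0.8. *Gm5771* was added after its values were seen, and single cell type markers, such as *Muc1* and *Sox9*, were named by their levels or slopes. A gene that the rule picks is not reported here; the counts over lists include it. The members and lists were chosen with earlier results of these data known. Alternatives were other scalings and filters, summed loci, DESeq2 1.42.0, limma-voom (3.58.1), a replicate block, the acinar factor as a covariate, other definitions of the factor and each library left out. The tests were tested on simulated data. No pair of libraries agreed within sampling noise (lowest chi-square per gene 27.4).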

Additional observations from a re-analysis of the deposited data

How the results depend on the processing

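The count of genes at an adjusted p under 0.05 was 0 in edgeR, 1 without the filter and 8 in DESeq2, none of them a member. Genes at an unadjusted p under 0.05 numbered 661 of 14082 in edgeR, 692 in DESeq2, 629 in limma-voom, 454 with the replicate block and 2695 with the acinar factor as a covariate. With each library left out, 14198 to 14298 genes were tested and 225 to 1238 had such a p (lowest without WT 2, 242 without WT 3, 967 without WT 1, 991 without KO 1, 1238 without KO 3). Members at an unadjusted p under 0.05 numbered 2, 10 in DESeq2, 0 in limma-voom, and 0 to 33 with each library left out (33 without KO 1, 1 without WT 2 and 0 without KO 3, WT 1 or WT 3). With the replicate number as a block, this count was 0 and the members' median log2 fold change 1.18. The labels do not pair the libraries. Deviations of same-numbered libraries from their group means correlated at 0.08, −0.14 and −0.37, and those of differently numbered libraries at −0.51 to 0.60. Since deviations within a group sum to 0, these correlations depend on each other and cannot decide whether the numbers mark pairs. Total count scaling set the median of all genes at −0.14 (log2) and turned the split of unadjusted calls to 57 higher and 591 lower, against 363 and 298, while all 33 members stayed above 0.

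With the acinar factor as a covariate, which was built from the members, 15 of the 33 log2 fold changes were above 0 and 18 turned below it, namely *Rnase1* (−0.14), *Tff2* (−0.0093), *Spink3* (−0.12), *Rbpjl* (−0.22), *Gatm* (−0.070), *Cpb1* (−0.058), *Serpini2* (−0.023), *Ctrc* (−0.20), *Pla2g1b* (−0.14), *Try4* (−0.38), *2210010C04Rik* (−0.021), *Try5* (−0.051), *Sycn* (−0.011), *Dmbt1* (−0.43), *Gp2* (−0.022), *Zg16* (−0.21), *Cuzd1* (−0.31) and *Ctrl* (−0.061). *Prss1* remained above 0 at 1.15 (adjusted p = 0.215 in edgeR). The cause of the other shifts was not tested.

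The genes out of proportion depended little on the settings. Between 6 and 8 of the 8 largest RMS residuals were shared with each alternative, and 25 or 26 members stayed within 1.5-fold with each library left out. At least 100 counts in every library left 28 members, of which 21 were within 1.5-fold, and removed *Nr5a2*, *Ptf1a*, *Rbpjl*, *Amy2b* and *Ctrc*. Of the members, *Ptf1a*, *Nr5a2*, *Rbpjl* and *Ctrc* had the fewest reads and are the most limited by depth.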
